A study of Homo sapiens with 7 samples.

Results

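The chromatin of 8 gene loci tied to neuroblastoma was examined for binding of MYCN: LMO1, LIN28B, HACE1, BARD1, CASC15, KIF1B, AURKA and TERT. The binding data are from ChIP-seq, in which DNA fragments crosslinked to a protein are pulled down with an antibody and sequenced, in the established human neuroblastoma cell line Kelly. The loci were taken as fixed windows on the genome build hg19, each spanning a gene and about 10 kb on either side, and every binding summit that fell in a window was kept. A summit is the position of locally highest ChIP signal inside a called interval. The windows covered 1315 kb and held 45 of the 64657 summits of the list, in 29 intervals. LMO1 held 14 of them, CASC15 held 8, KIF1B 7, LIN28B 6, BARD1 and TERT 4 each, and HACE1 and AURKA 1 each.

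Sensitive Kelly cells had received DMSO, the vehicle, and cells resistant to the ALK inhibitor TAE684 had received TAE684 at 1 µM, each for 48 h. The sensitive state has 2 MYCN ChIP samples and 1 input, which is chromatin sequenced without pull-down, and the resistant state has 2 of each kind. All samples come from 1 cell line. The peak lists of both states were the same in all 64657 rows, and all 64657 peak names of the second list carry the name of the sensitive one, so no comparison between the states was made and every value refers to the sensitive, DMSO-treated cells. Both ChIP samples share 1 list. No value therefore has a replicate error and no test across samples was possible.

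MYCN is a transcription factor of the MYC family that pairs with MAX and binds the E-box, a short DNA element whose classical form reads CACGTG. MYC proteins are known for occupying the promoters of many active genes, and amplification of the MYCN gene marks aggressive neuroblastoma. Inherited variation at LMO1, LIN28B, HACE1, BARD1 and CASC15 has been linked to the risk of this tumour. KIF1B, AURKA and TERT have also been studied in it: KIF1B as a candidate tumour suppressor, AURKA because its protein binds and stabilises MYCN, and TERT because telomerase is switched on in high-risk tumours.

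All 8 genes had a MYCN summit close to where the gene begins. An approximate start was placed 10 kb inside the window on the 5′ side of the gene. It is known no better than to 1 kb, since the windows are given in whole kb with a margin of about 10 kb, and all distances below share that limit. Within 2 kb of these starts lay 21 of the 45 summits (46.7%), in 2.43% of the window length. The density there was 656 summits per Mb (95% Poisson interval 406 to 1003), against 18.7 (12.0 to 27.8) in the rest of the windows. These intervals cover counting error only, and summits of 1 interval are not independent sites. Chromatin around the starts of genes other than these 8 was not analysed here, so the closeness to the start is not shown to be particular to these genes.

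To show what the DNA at these starts looks like, the 250 bases before the start were read for the 7 genes present in RefSeq's promoter table on the build GRCh38.p14. The table lists no AURKA promoter. The table holds 11 starts for these 7 genes. The classical E-box CACGTG was found before a start of 2 of the 7 genes, TERT and LIN28B. Of all 27326 genes listed, 7.73% have it before at least 1 start, and of all 35116 promoters 6.34% hold it. The variants CATGTG and CACGCG, searched on both strands, were in none of the 7, against 11.5% and 11.6% of all genes (9.42% and 9.72% of all promoters). The loose pattern CANNTG, of which CACGTG is one form, was found in 4 of the 7 genes, against 66.7% of all genes (61.8% of all promoters). These are matches of letters and not mapped binding sites, and the hg19 summits were not placed on these GRCh38 sequences. The following promoters, written 5′ to 3′ on the strand of the gene with the E-box letters in capitals, are those of the genes with CACGTG (both starts of LIN28B), followed by the genes with the highest fold enrichments among the rest. The stretches are chr5:1295069-1295318 (minus strand) for TERT, chr6:104956857-104957106 (plus) for the inner and chr6:104940715-104940964 (plus) for the outer start of LIN28B, chr6:104859920-104860169 (minus) for the outer start of HACE1 and chr2:214809684-214809933 (minus) for BARD1.
TERT: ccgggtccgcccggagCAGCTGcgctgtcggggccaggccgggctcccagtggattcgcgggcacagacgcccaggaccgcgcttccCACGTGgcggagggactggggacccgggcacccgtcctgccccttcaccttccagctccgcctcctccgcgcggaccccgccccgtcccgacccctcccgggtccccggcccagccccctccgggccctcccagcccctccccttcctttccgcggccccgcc
LIN28B, inner start: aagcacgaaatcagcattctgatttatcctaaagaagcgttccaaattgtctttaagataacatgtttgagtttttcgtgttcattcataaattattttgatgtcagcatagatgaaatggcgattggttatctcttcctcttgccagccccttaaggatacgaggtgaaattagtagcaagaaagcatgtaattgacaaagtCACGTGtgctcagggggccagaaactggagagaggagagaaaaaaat
LIN28B, outer start: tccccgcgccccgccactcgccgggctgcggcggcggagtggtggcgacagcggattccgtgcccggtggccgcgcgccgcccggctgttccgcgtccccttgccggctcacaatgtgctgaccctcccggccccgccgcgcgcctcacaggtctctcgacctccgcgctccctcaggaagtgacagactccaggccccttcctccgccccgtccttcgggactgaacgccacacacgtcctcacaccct
HACE1, outer start: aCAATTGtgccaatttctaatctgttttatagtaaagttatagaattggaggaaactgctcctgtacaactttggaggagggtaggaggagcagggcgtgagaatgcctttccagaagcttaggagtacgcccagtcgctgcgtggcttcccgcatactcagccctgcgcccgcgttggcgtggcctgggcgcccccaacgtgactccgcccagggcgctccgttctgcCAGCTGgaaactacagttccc
BARD1: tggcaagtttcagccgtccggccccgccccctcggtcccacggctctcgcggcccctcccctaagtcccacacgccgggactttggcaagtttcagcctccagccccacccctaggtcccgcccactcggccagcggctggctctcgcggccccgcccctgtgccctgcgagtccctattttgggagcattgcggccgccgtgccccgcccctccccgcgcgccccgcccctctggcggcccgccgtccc

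In TERT the CACGTG begins 163 bases before the start, and a second match to CANNTG begins 234 bases before it. In the inner promoter of LIN28B the CACGTG begins 47 bases before the start. That promoter is poor in G and C, at 38.4%, whereas its outer promoter has 73.6%, BARD1 75.2%, TERT 78.8% and HACE1 56.0% at its outer and 75.2% at its inner start. The median over all promoters was 58.0%. HACE1 has CANNTG matches beginning 249 and 21 bases before the outer start and none before the inner one. BARD1 has no match to any of the 4 patterns in its 250 bases. Its strongest summit, second among the loci by fold enrichment, was not placed on this sequence.

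Fold enrichment is the authors' ratio of scaled ChIP signal to the local background at the summit, with a constant added to both. It was of ordinary size in most of these summits. The 45 values ran from 2.56 to 16.1 with a median of 5.46, and the median of the whole list was 5.35. Restricted to a −log10 q of at least 5, the order turned, with 5.70 in the windows and 5.80 in the list. At least 5-fold enrichment was found at 27 of 45 summits (60.0%, exact 95% binomial interval 44.3 to 74.3), and 55.8% of the whole list reached it. At least 10-fold enrichment was found at 7 of 45 (15.6%, 6.49 to 29.5), against 12.0% of the list. None of the 45 reached 20-fold, which allows a share of up to 7.87%, and 0.778% of the list did. Each of these shares is close to its background, and the intervals include it.

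**Figure D1:**
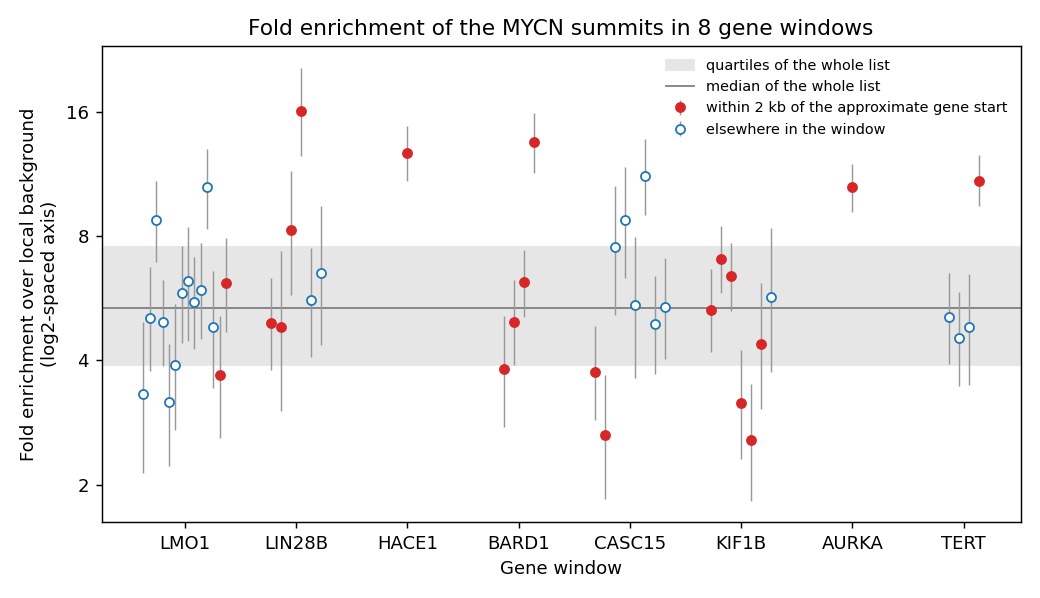
Fold enrichment (vertical, log2-spaced axis) of all 45 MYCN summits in the 8 gene windows, in genomic order within a gene. Filled points lie within 2 kb of the approximate gene start, and bars are 95% Poisson intervals of the ChIP fragments with the background held fixed. The band and line give the quartiles (3.90 and 7.54) and median (5.35) of the whole list. The highest point is LIN28B at 16.1, and KIF1B has no point above 7.05.

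The strongest summit of each locus told the genes apart only in part. LIN28B had the highest fold enrichment, 16.1, followed by BARD1 with 13.5, HACE1 with 12.7, CASC15 with 11.2, TERT with 10.9, and AURKA and LMO1 with 10.5 each. KIF1B was lowest, with 7.05. The counting intervals of every pair of neighbours in this order overlap, from 12.5 to 20.5 for LIN28B down to 5.82 to 8.47 for KIF1B. The interval of KIF1B overlaps that of LMO1 (8.34 to 13.0) and of no other locus. These intervals hold the background fixed and leave out its error, so they are too narrow to separate the loci. A maximum tends to be larger in a window with more summits. In 6 of the 8 loci the strongest summit lay within 2 kb of the approximate start. LMO1 and CASC15 were the exceptions.

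The order changed when ChIP fragments were counted in place of fold enrichment. The numbers of ChIP fragments over a summit and the local background, in input fragments, were solved from the deposited fold enrichment and p-value. Fold enrichment is not their plain ratio, since the fragments are scaled and a constant is added to both numbers. That constant lowers the ratio most where the background is low. AURKA had the most fragments, 219 (95% Poisson interval 191 to 250), then TERT with 192 (166 to 221), HACE1 with 171 (146 to 199), BARD1 with 140 (118 to 165), KIF1B with 111 (91.3 to 134), CASC15 with 86, LMO1 with 80 and LIN28B with 64 (49.3 to 81.7). The locus first by fold enrichment was thus last by fragments. At the ranked summits inside the windows, the backgrounds ran from 12.5 input fragments at AURKA and 10.4 at TERT to 1.61 at LIN28B. The last value is the lowest in the list. It was taken as the genome-wide mean, which was not measured separately. Of the 45 summits, 7 had at least 100 ChIP fragments, all of them within 2 kb of a start, while 26.3% of the whole list reached that number. Away from the starts the highest number was 86. The median background was 7.70 near the starts and 4.44 elsewhere, and the median fold enrichment was 5.31 and 5.51. The part of background in these differences was not tested.

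**Figure D2:**
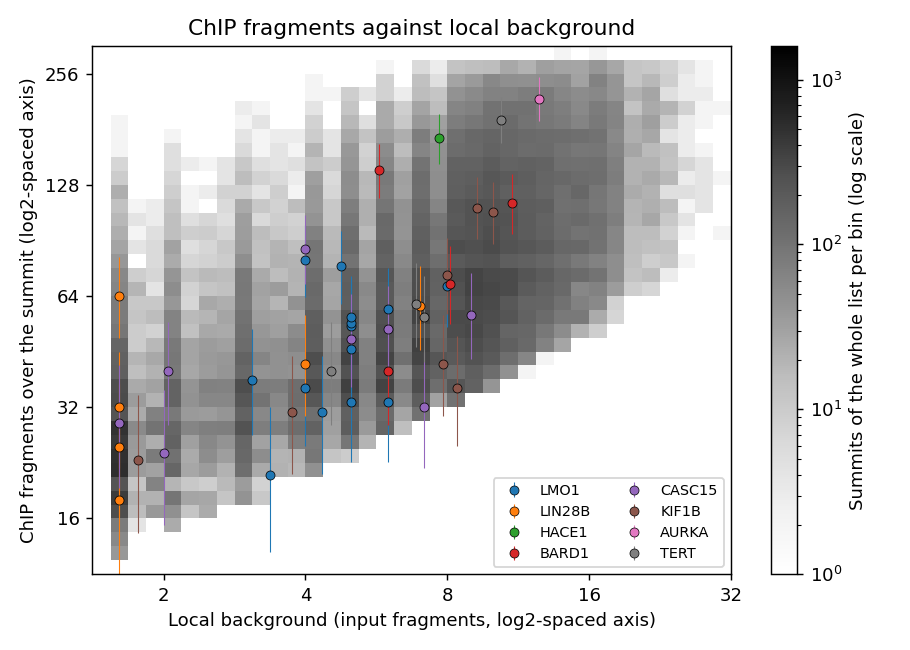
ChIP fragments over each summit (vertical) against the local background in input fragments (horizontal), both on log2-spaced axes. Colours mark the 8 loci, bars are 95% Poisson intervals and grey squares count the summits of the whole list. AURKA, TERT and HACE1 lie at the top with 219, 192 and 171 fragments, and 4 of the 6 LIN28B summits lie at the left edge, at a background of 1.61.

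LMO1, LIN28B and CASC15 produce a transcription cofactor, an RNA-binding protein and a non-coding RNA. LMO1 encodes a LIM-domain cofactor that bridges transcription factors without binding DNA itself. Its window, chr11:8235000-8300000, held 14 summits in 8 intervals, 12 of them placed inside the gene. They formed groups along the gene: 5 summits between 33.76 and 35.46 kb from the approximate start, 3 between 24.80 and 25.66 kb, 4 between 2.58 and 5.37 kb, and 2 at the start. The strongest, at 8285533, lay 4.47 kb into the gene with a fold enrichment of 10.5 (8.34 to 13.0) and 80 ChIP fragments. The next, at 8255596, had 8.75 (6.94 to 10.9) and 77 fragments. It sits in an interval from 8255038 to 8256323 that is 1286 bp wide and holds 4 summits, 33.76 to 34.67 kb into the gene. The third, at 8265198, had 6.22 with 38 fragments. At the start itself the nearest summit, at 8290011, had 3.69 with 33 fragments, a fold enrichment that 78.9% of the list exceed. Its neighbour 0.29 kb upstream of the approximate start had 6.15 (4.69 to 7.94) with 56, and 38.9% of the list exceed that fold enrichment. The lowest value was 3.17, at 8256242, in the same wide interval as the 8.75. Backgrounds at LMO1 were even, between 3.08 and 8.00 input fragments. A non-coding RNA gene, LOC105376536, is listed by RefSeq inside LMO1, so the summits cannot be assigned to LMO1 alone.

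LMO1 had the highest density of summits of the 8 loci. Its interval overlaps those of TERT and AURKA and lies above those of the other 5. It held 215 summits per Mb (95% Poisson interval 118 to 361), or 10.1 times the 21.3 per Mb over chromosomes 1 to 22 and X, and 7.56 times the 28.5 per Mb in the 1 Mb on each side of it. All 8 windows together held 34.2 per Mb (25.0 to 45.8), 1.61 times the genome-wide density (1.17 to 2.15). Without LMO1 the ratio was 1.16 (0.791 to 1.65), an interval that includes 1. Splitting of broad intervals into several summits adds to such counts, and copy number was not accounted for.

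LIN28B encodes an RNA-binding protein that blocks the maturation of let-7 microRNAs, which themselves target MYCN. All 6 of its summits lay in the first 2.83 kb after the approximate start of the window chr6:105394000-105542000, and the following 135 kb, up to the end of the window, held none. In order along the gene, the fold enrichments were 4.94 at 105404079, 4.81 at 105404674, 8.26 at 105405092, 16.1 at 105405518, 5.59 at 105406016 and 6.53 at 105406828. The second to the fourth of these belong to 1 interval, from 105404607 to 105405693, in which the value is highest at the downstream end. The 16.1 is higher than at all but 1.98% of the list. It rests on 64 ChIP fragments, a number that 48.6% of the list exceed, over the lowest background in the list. The other 5 summits had 18 to 60 fragments. RefSeq lists a further start of LIN28B on GRCh38.p14, 16.1 kb upstream of the inner one, which makes its gene model 146 kb long against 128 kb for the window without its margins. It also lists an antisense gene, LIN28B-AS1, that overlaps LIN28B, so the summits cannot be assigned to LIN28B alone.

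CASC15 is a long non-coding RNA gene next to SOX4 and the longest of the 8 loci, at about 529 kb. Its window, chr6:21656000-22205000, held 8 summits in 6 intervals, and the strongest ones were far from the start. The highest, at 22146490, lay 480.49 kb into the gene with a fold enrichment of 11.2 (9.02 to 13.8) and 86 ChIP fragments. An adjacent interval held summits of 4.91 and 5.40 at 22146998 and 22147235. RefSeq places NBAT1, another non-coding RNA gene of neuroblastoma, inside CASC15, so a summit in this gene cannot be assigned to CASC15 alone. Single summits at 21781511 and 21752027 had 8.76 (6.35 to 11.8) with 40 fragments and 7.52 (5.16 to 10.6) with 29. Both lay over backgrounds at or near the lowest in the list. One at 21987863 had 5.46 with 24 fragments. Upstream of the approximate start the binding was weak: 3.76 with 57 fragments at 21664775, and 2.64 (1.85 to 3.68) with 32 at 21665033, a value that 96.2% of the list exceed. RefSeq lists a gene annotated as protein-coding, LOC124901483, beside that start and facing away from it. These upstream summits therefore cannot be assigned to CASC15 alone. The density of the window, 14.6 per Mb (6.29 to 28.7), was close to the 14.5 per Mb averaged over its flanks. The flanks were uneven, however. Above the window the nearest summit lay 972 kb away, and below it 59.0 kb. The window was not compared with each side separately.

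HACE1, BARD1 and KIF1B have each been described as tumour suppressors. HACE1, an E3 ubiquitin ligase, had a single summit in the whole 152 kb of chr6:105166000-105318000. It lay at 105307812, 0.19 kb from the approximate start, in an interval of 781 bp. With 171 ChIP fragments over a background of 7.70, its fold enrichment was 12.7 (10.9 to 14.8), which 5.09% of the list exceed. The 142 kb from there to the far edge of the window held no other.

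BARD1 encodes the partner of BRCA1 in a ubiquitin ligase complex. Its 4 summits in chr2:215583000-215685000 all lay within 1.99 kb of the approximate start, and the remaining 90.0 kb of the window on the gene side held none. An interval of 1188 bp, from 215673922 to 215675109, held 3 of them, and the values rose towards the start: 4.96 with 69 ChIP fragments at 215674247, 6.18 with 114 at 215674457 and 13.5 (11.4 to 15.9) with 140 at 215674860. Although it had the most fragments, the last stood over the lowest background of the 3, 5.74 input fragments against 8.12 and 11.0. A separate summit further in, at 215673011, had 3.81 with 40. RefSeq lists a non-coding RNA gene, SNHG31, beside the start of BARD1 and facing away from it, so the binding cannot be assigned to 1 of the 2 genes. The 1 Mb on each side of the window was sparse, with 9 summits, or 4.50 per Mb.

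KIF1B encodes a kinesin, a motor protein that carries cargo along axons. In chr1:10260000-10452000, 6 of its 7 summits lay in the first 1.91 kb of the gene. The widest interval of the 8 loci is here, 1380 bp from 10269920 to 10271299 with 5 summits. The values in it were 5.31 at 10270119, nearest the approximate start, 7.05 (5.82 to 8.47) at 10270428, 6.39 (5.26 to 7.69) at 10270597, 3.16 at 10270953 and 2.56 (1.83 to 3.51) at 10271229. They peak 0.43 to 0.60 kb into the gene, with 111 and 108 ChIP fragments, and fall to 36 fragments at the far end. The 2.56 is the lowest fold enrichment of all 45 summits. A lone summit 130.04 kb into the gene, at 10400043, had 5.70 (3.74 to 8.37) from only 23 fragments over a background of 1.76. The region is dense in summits: the window had 36.5 per Mb (14.7 to 75.1) and its flanks 55.0.

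AURKA and TERT encode enzymes. AURKA, a mitotic kinase, had 1 summit in chr20:54934000-54978000, at 54967675, 0.33 kb from the approximate start, with a −log10 q of 90.0, the highest of the 45. Its 219 ChIP fragments are exceeded by 2.15% of the list, but its background of 12.5 input fragments, also the highest of the 45, left a fold enrichment of 10.5 (9.17 to 12.0). RefSeq places CSTF1, a gene for an RNA 3′-end processing factor, beside AURKA, on the plus strand and on the side where the minus-strand AURKA begins, so this summit too cannot be assigned to 1 gene.

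TERT encodes the catalytic subunit of telomerase. Of its 4 summits in chr5:1243000-1306000, 1 stood out: at 1295082, 0.92 kb from the approximate start, with 192 ChIP fragments, a fold enrichment of 10.9 (9.45 to 12.6) and a −log10 q of 81.7. Its interval, from 1294497 to 1295526, was 1030 bp wide but held a single summit. The other 3 were lower and in narrower intervals, with fold enrichments between the quartiles of the whole list (3.90 and 7.54). A summit 33.33 kb into the gene, at 1262672, had 4.81 (3.49 to 6.49), and 2 beyond the gene's end, at 1246880 and 1246145, had 4.54 (3.46 to 5.85) and 5.10 (3.93 to 6.52). With the background held fixed, their counting intervals overlap each other and lie below that of the summit at the start. RefSeq places SLC6A18 next to the end of TERT, and the 2 last summits cannot be assigned to TERT. It also lists LOC107987433 inside TERT and LOC124905596 overlapping it, both annotated as protein-coding. The remaining summits therefore cannot be assigned to TERT alone.

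**Figure D3:**
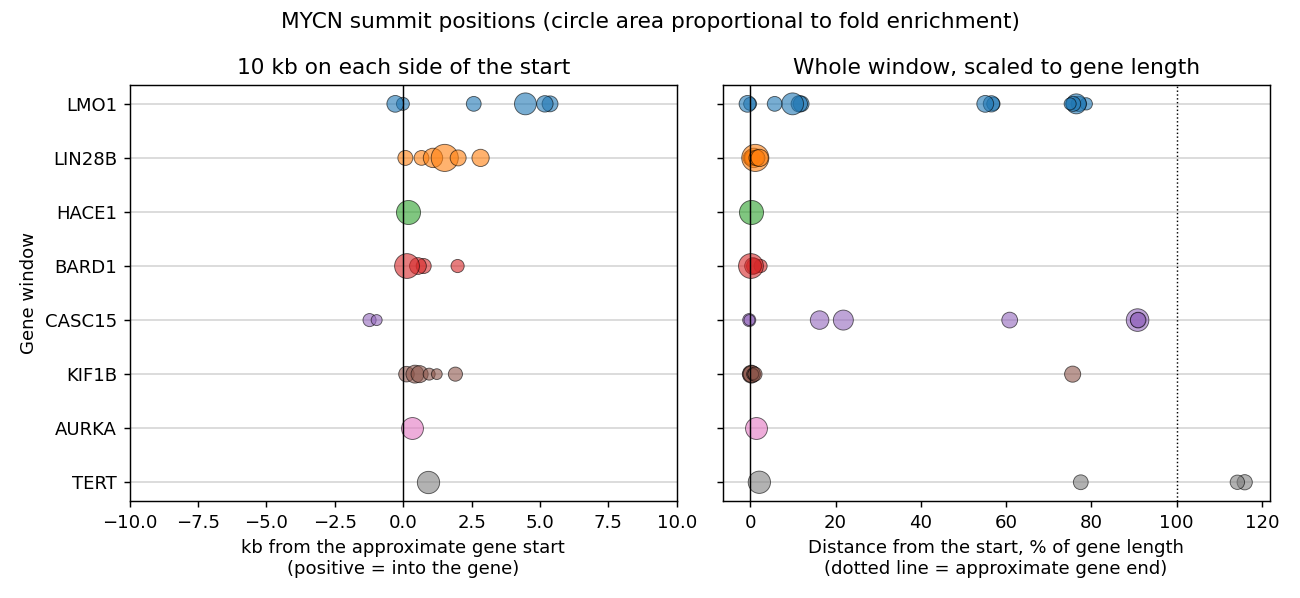
Positions of the 45 summits, 1 row per locus, with circle area proportional to fold enrichment. The left panel gives kb from the approximate start within 10 kb on either side, and the right panel the same distance as a percentage of the gene length, with the dotted line at the gene end. LIN28B, HACE1, BARD1 and AURKA have circles at the start of the gene only, LMO1 and CASC15 have their largest circles inside the gene, and TERT has 2 past its end.

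The intervals of these loci were mostly short, with 1 summit each. A single summit was held by 20 of 29 intervals (69.0%, exact 95% interval 49.2 to 84.7), as by 76.4% of all intervals. Intervals with at least 4 summits numbered 2 of 29, at LMO1 and KIF1B (6.90%, 0.846 to 22.8), against 2.63% in the list. The median width was 256 bp, and 279 bp in the list. The median number of ChIP fragments was 52 and the median background 5.0, against 63 and 7.56 in the list.

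**Figure D4:**
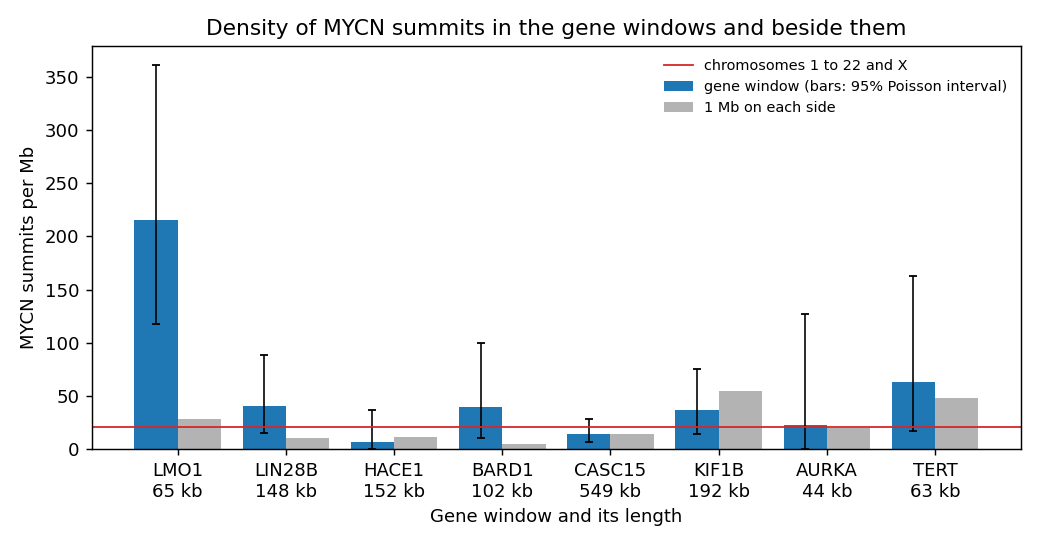
MYCN summits per Mb (vertical, from 0) in each gene window (blue, with 95% Poisson intervals) and in the 1 Mb on each side (grey). The line is the density over chromosomes 1 to 22 and X, 21.3 per Mb. LMO1 reaches 215 per Mb, and the windows of HACE1 and CASC15 lie below the line at 6.58 and 14.6. The flanks of LIN28B and HACE1 overlap, and each includes the window of the other.

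The edges of the windows decide which summits were counted. The nearest one outside lay 34 bp below the AURKA window, at 54933967, with a fold enrichment of 5.39 and 116 ChIP fragments. RefSeq lists FAM210B on that side of AURKA. Among summits inside, the one nearest an edge was that of TERT at 1246145, 3.14 kb from it, with 5.10.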

How the data were processed

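MYCN ChIP and input samples were sequenced, and the files used were 1 peak list per state. Per the submitters' processing notes, the tools included the aligner STAR 2.5.1b, the peak caller MACS2 2.1.1, deepTools 2.2.4, SAMtools 1.3.1 and Picard, on hg19. No settings, and no account of how both ChIP samples were combined, were found in these sources. As deposited, each row holds a fold enrichment, a −log10 p-value, a −log10 q-value and a score, which is 10 times the −log10 q without decimals. The fold enrichment is the ratio of scaled ChIP signal to local background, with a constant added to both. The authors' fold values were used only within the list.

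The genes, windows, patterns and thresholds were chosen with earlier results of these data known. All summits of a locus were given where it had at most 6. Otherwise the 3 of highest fold, the one with most ChIP fragments, the nearest to the start and the lowest were given, and more where they show a group. Gene strand came from RefSeq's promoter table, for AURKA from textbook knowledge. No hg19 annotation or sequence was used, so exons, introns and other neuroblastoma genes were not analysed here. The design planned to use them only if they were at hand.

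ChIP fragments and background were solved from fold and p-value as MACS2 defines them. Fold is the ChIP fragments times a scale, plus 1, divided by the background plus 1. With 1 scale, 0.641, a whole number of fragments matched −log10 p within 0.0005 at 64657 of 64657 summits, with 2 candidates at 24 and at 0 of the 45. Tested on 2000 simulated summits at each of 3 scales, the exact number came back for all 2000 each time. Poisson and exact (Clopper-Pearson) 95% intervals cover counting error alone. For fold enrichment this is the error of the ChIP fragments only, with the background held fixed. Without molecular identifiers, reads may be copies of 1 molecule. For densities, each chromosome was taken to end at its last peak. Thresholds, window edges and the counted unit were varied. Python 3.11.15, numpy 2.4.6, pandas 2.3.3, scipy 1.17.1 and matplotlib 3.10.9 were used.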

Additional observations from a re-analysis of the deposited data

How the results depend on the processing

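No paired analysis was possible because the replicates of a state are merged in 1 list, which also kept any replicate from being left out. Of the 45 summits, 29 passed a −log10 q of 10 and 27 passed 5-fold enrichment. The other settings gave 31 to 54 summits. Counted as intervals that overlap a window, there were 30. The density ratio of 1.61 was 1.16 without LMO1, a setting chosen after seeing the data, and 1.33 against the 1 Mb on each side. These flanks held 25.7 summits per Mb, which lies inside the Poisson interval of the windows, 25.0 to 45.8. Under the other settings the ratio was 1.40 to 1.73. The median fold enrichment ran from 5.46 to 6.18, and under the stricter q thresholds it lay below that of the list, at 5.70 against 5.80 and 6.18 against 6.74. A summit near the start was found for 8 of 8 genes within 1, 2 and 5 kb and for 7 with a fold enrichment of at least 5, all but CASC15. The 1 kb setting is no wider than the uncertainty of the starts. CASC15 met it only through its 2.64-fold summit, at 0.97 kb. The share at 10-fold or more was 15.6% to 24.1%, and 12.0% to 15.1% in the list. The counts of single loci moved by over 1.5 times under 14 of their alternatives and by 1.5 times or less under 34. No summit of the list has fewer than 13 ChIP fragments or a −log10 q below 2.01, so weaker sites were not analysed here. What sets the limit on fragments, depth or the q threshold of the list, was not tested.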

Other observations

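Strong binding lay between the windows of HACE1 and LIN28B, which are 76 kb apart. This stretch was looked at after the values were seen. It held 3 summits in 1 interval, from 105388116 to 105389589 on chromosome 6, 14.6 to 15.5 kb upstream of the approximate start of LIN28B. Their fold enrichments were 8.32 at 105388487, 7.85 at 105388931 and 16.8 at 105389401, with 180, 182 and 219 ChIP fragments. The strongest summit inside the LIN28B window had 16.1, with 64 fragments. RefSeq lists an outer start of LIN28B 16.1 kb upstream of the inner one on another build, and an antisense gene, LIN28B-AS1, that overlaps LIN28B. Which of these starts the interval belongs to was not tested. With the window widened by 10 kb on each side, LIN28B held 9 summits in place of 6.

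Other loci had strong neighbours too. Just outside the LMO1 window, summits at 8228032 and 8305165 had fold enrichments of 11.8 and 12.6, both above the highest value inside it. A summit 6.91 kb past the KIF1B window had 11.7 with 193 ChIP fragments, against at most 7.05 and 111 inside it. Above the CASC15 window the nearest summit was 972 kb away, and below it 59.0 kb.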
